A study of Bos taurus with 3 samples.

Results

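Histone-rich cells are the cells of each culture with the highest levels of 6 replication-dependent histone genes (H3C3, H2AC12, H2AC20, H3C7, H4C3 and H1-4). They numbered 609 of 6088 kept cells in the adipose tissue culture, 830 of 8297 in the bone marrow culture and 303 of 3033 in the blood culture, 1742 of 17418 in all. A cell was kept if it held at least 4439 UMIs in adipose tissue, 4415 in bone marrow or 7489 in blood. A UMI (unique molecular identifier) marks 1 captured RNA molecule. The kept cells also had to hold less than 0.02% of their UMIs in the macrophage genes TYROBP, FCER1G and AIF1, a limit that removed 0 adipose, 984 marrow and 159 blood cells. Each kept cell was scored by the mean, over the 6 genes, of the natural log of 1 plus its UMIs per 10000. The 10% of cells with the highest score in each library were taken, so their share of the cells is set by the rule and is not a result. They are the upper end of a continuous score rather than a separate type.

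The cultures were wild-type mesenchymal stromal cells, which are plastic-adherent, fibroblast-like cells, grown without treatment from peripheral blood, adipose tissue and bone marrow. The donor was 1 healthy Holstein-Friesian cow in its first lactation. The medium was DMEM low in glucose, with 30% FBS (fetal bovine serum), P/S and L-glutamine, and cells were taken once colonies appeared. Single cells were profiled with 10x Genomics 3' v3.1 chemistry. There was 1 library per tissue, so no difference below carries a p-value, all intervals are 95% intervals for counting error only, and the tissue cannot be told apart from the library. Intervals on shares of cells count the cells of 1 library and do not measure the spread between cows or cultures.

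Histones are the proteins around which DNA is wound. The replication-dependent histone genes lie in clusters, and a dividing cell makes their mRNAs in S phase, when the newly copied DNA has to be packaged. These mRNAs normally end in a stem-loop instead of a poly(A) tail, and the stem-loop-binding protein SLBP takes part in their processing, translation and decay. A method that captures RNA by its poly(A) tail therefore reads an unknown part of them, and levels are compared below between cells and not between histone genes. Many of these genes are near-identical copies that can share reads, so the value of a single copy is uncertain.

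Libraries held 99356868 (adipose tissue), 106322567 (bone marrow) and 98016815 UMIs (blood), and the median kept cell held 14391, 9111 and 24926. Histone-rich cells were close to the others of their library in depth, with a median of 14205 UMIs against 14406 in adipose tissue, 9394 against 9056 in bone marrow and 25737 against 24780 in blood. They held more genes at a fixed depth: after each cell was thinned to 4000 UMIs the medians were 1768 against 1727, 1749 against 1689 and 1722 against 1677 genes. The median share of mitochondrial UMIs was 3.15% against 2.92%, 2.65% against 2.42% and 2.54% against 2.47%. Cells with over 2 times the median UMIs of their library, where doublets would be found, were 2.13% of histone-rich and 5.11% of other cells in adipose tissue, 2.89% and 8.34% in bone marrow, and 2.97% and 6.41% in blood. Doublets were not removed. Pairs of libraries shared 8, 4 and 10 cell barcodes, and 0 were shared by all 3.

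The cells carried stromal genes, and the marker lists of other cell types were at low levels. The 20 stromal markers summed to 24340 CPM (a gene's UMIs scaled to a common total) in histone-rich and 27448 CPM in other adipose cells, 25890 and 29353 CPM in bone marrow, and 31962 and 39383 CPM in blood. The 16 macrophage markers summed to 16.2 against 19.0 CPM, 32.5 against 37.9 CPM and 63.0 against 97.1 CPM. They include TYROBP, FCER1G and AIF1, so the limit used to keep cells holds part of this sum low in both pools. In histone-rich cells 10, 2 and 6 of the 16 were at 0 UMIs, and the leukocyte phosphatase PTPRC and the integrin ITGAM were at 0 in every library. The highest were CD14 in adipose tissue (7.67 CPM), CTSS in bone marrow (12.3 CPM) and LAPTM5 in blood (41.9 CPM). The 8 mural markers, of the cells that wrap vessels, summed to 45.7 against 38.8 CPM in adipose tissue, 70.0 against 61.2 CPM in bone marrow and 64.3 against 41.4 CPM in blood, with 6, 5 and 4 of them at 0 UMIs in histone-rich cells. Nearly all of these UMIs were of the proteoglycan gene CSPG4, at 45.6 against 38.2, 69.2 against 60.3 and 63.3 against 40.7 CPM, which counts as higher in blood (1.56-fold) by the limits given below. The 12 endothelial markers summed to 31.5 against 27.3 CPM in adipose tissue and to under 4 CPM in the other libraries. The 11 lymphoid and erythroid markers found stayed under 2 CPM in every group.

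The 6 genes that define the cells were measured as follows, and these values only describe the choice. H3C3, which encodes histone H3, stood at 197 CPM in histone-rich and 36.0 CPM in other adipose cells, at 153 and 23.9 CPM in bone marrow, and at 59.4 and 6.78 CPM in blood. H3C7, another H3 gene, had 173 and 32.2, 131 and 20.8, and 67.5 and 8.62 CPM. The H2A genes gave 373 and 69.1, 251 and 44.3, and 122.7 and 16.7 CPM for H2AC12, and 428 and 90.9, 272 and 52.4, and 133 and 22.2 CPM for H2AC20. For H4C3, an H4 gene, the levels were 92.9 and 15.6, 82.9 and 12.7, and 33.8 and 6.43 CPM. The linker histone gene H1-4 had 726 and 198, 468 and 112, and 397 and 105 CPM. The ratios lay between 3.67 (H1-4, adipose tissue) and 8.76 (H3C3, blood), and H1-4 had the smallest ratio of the 6 in each library. Of the 3 genes that carry the symbol H4C3 in the files, 2 had 0 UMIs in every library.

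**Figure D1:**
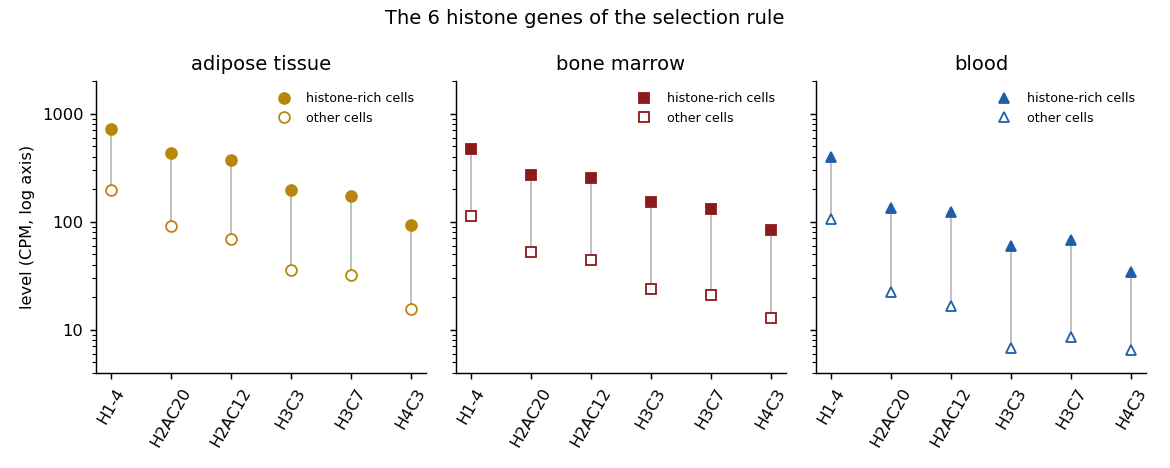
Level of the 6 genes of the selection rule in each library, in CPM on a log axis. Filled symbols are histone-rich cells and open symbols the other kept cells of the same library, each a sum over cells. Filled symbols lie 3.67 to 8.76 times above open ones, and the level of every gene is lowest in blood.

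Together the 6 genes made up 1991 CPM in histone-rich and 441 CPM in other adipose cells, 1358 and 266 CPM in bone marrow, and 813 and 166 CPM in blood. Free RNA, read from barcodes of 10 to 100 UMIs, held 379, 220 and 153 CPM of them (353 to 406, 195.4 to 247 and 138 to 168), below the other cells in adipose tissue and bone marrow and within counting error of them in blood. Histone-rich cells carried 30.3% (adipose), 34.3% (bone marrow) and 34.9% (blood) of all 6-gene UMIs of the kept cells, with 8.80%, 9.30% and 9.86% of the UMIs overall. The median histone-rich cell held 26, 12 and 21 UMIs of the 6 genes against 4, 2 and 3 in other cells. All 6 genes were read in 357 of 609, 211 of 830 and 99 of 303 histone-rich cells.

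The score had no gap at the limit. In adipose tissue the lowest histone-rich cell scored 1.0868 and the highest other cell 1.0861, in bone marrow the scores were 0.8117 and 0.8111, and in blood 0.5308 and 0.5305. Within 0.1 of the limit lay 209 histone-rich and 255 other adipose cells, 284 and 341 bone marrow cells, and 120 and 183 blood cells. Thinning every cell to 4000 UMIs before scoring kept 67.2%, 69.6% and 59.1% of the histone-rich cells in the top 10%. When the cells were ranked separately by H3C3, H2AC12 and H2AC20 and by H3C7, H4C3 and H1-4, the top 10% by either set shared 48.3% (adipose), 42.8% (bone marrow) and 55.8% (blood) of their cells. In the cells chosen by a set, each gene of the other set was 3.18 to 5.75 times as high as in the rest. The sets are not independent: all are rule genes, and H3C3 and H3C7, both H3 genes that may share reads, fall in different sets.

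Histone-rich cells were compared with the other cells of their library gene by gene. UMIs were summed over each pool, and a gene was counted as higher or lower when the CPM differed at least 1.5-fold and reached 20 CPM in the higher pool. In adipose tissue 78 of 5456 measured genes (1.43%) were higher and 32 (0.587%) lower. In bone marrow 112 of 5453 (2.05%) were higher and 26 (0.477%) lower. In blood 160 of 5468 (2.93%) were higher and 135 (2.47%) lower. The median log2 ratio of all measured genes was 0.04, 0.07 and 0.05. Of the counted genes, 81.2% in bone marrow and 54.2% for blood were the higher ones, against 68.1% and 42.3% when the pools were scaled by the median of ratios instead of by total UMIs. In all 3 libraries 48 of 4981 genes (0.964%) were higher, of which 6 were the rule genes, 6 other listed histone genes and 36 other genes. Only 5 (0.1%) were lower in all 3. No gene was higher in 1 library and lower in another.

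Replication-dependent histone genes outside the rule formed the group farthest from the other genes. Of 18 that reached 20 CPM in adipose tissue 16 were higher and 0 lower, of 14 in bone marrow 12 were higher, and of 7 in blood 6 were higher. Their median log2 ratios were 1.82, 1.76 and 1.62. H1-2, a linker histone gene, had 459 CPM in histone-rich and 138 CPM in other adipose cells (3.32-fold, 95% interval 3.20 to 3.44), 363 and 107 CPM in bone marrow (3.38-fold) and 210 and 72.5 CPM in blood (2.89-fold, 2.74 to 3.05). H4C4 had 190 and 68.9, 252 and 97.0, and 118 and 41.5 CPM, which is 2.76-fold, 2.60-fold and 2.85-fold. The H2A genes H2AC14, H2AC17 and H2AC6 and the H2B gene H2BC12 were the others higher in every library. H2AC17 reached 60.5 CPM against 14.6 (4.13-fold), 49.97 against 11.4 (4.37-fold) and 26.4 against 4.60 (5.74-fold). H1-12, an H1 gene that was not on the list, stood at 40.5 against 13.2 CPM, 23.6 against 7.79 CPM and 20.5 against 5.64 CPM, between 3.03-fold and 3.64-fold. The H1, H2A, H3 and H4 genes among them belong to the same sequence families as the rule genes, which include no H2B gene. Some of these genes are neighbours of rule genes. In the RefSeq gene order of ARS-UCD2.0, H2BC12 is next to H2AC12, and H2AC7 and H4C4 are the neighbours of H1-12.

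H2BC15 and H2BC5 were the 2 measured histone genes that did not pass the limit. H2BC15 stood at 107 CPM in histone-rich and 97.2 CPM in other adipose cells, 84.6 and 78.4 CPM in bone marrow, and 50.2 and 50.7 CPM in blood. Its ratios of 1.10 (95% interval 1.03 to 1.18), 1.08 (0.996 to 1.17) and 0.989 (0.892 to 1.09) have intervals that end below 1.5. H2BC5, the neighbour of H1-4, stood at 28.4 and 25.2, 20.01 and 16.4, and 19.8 and 15.2 CPM, with ratios of 1.13, 1.22 and 1.30. Histone variants, which are made outside S phase as well, gave 0 counted genes of 8, 8 and 7. Over all measured genes 1.43%, 2.05% and 2.93% were higher, so a count of 0 among so few genes does not set the variants apart. Their median log2 ratios were -0.03, 0.01 and 0.06. H3-3B, a gene of the variant H3.3, had ratios of 1.18, 1.09 and 1.30, and H2AZ1, a gene of the variant H2A.Z, 0.988, 1.03 and 1.30. CENPA, the centromeric H3 variant, was at 64.6 against 80.7 CPM, 53.8 against 74.97 CPM and 47.2 against 61.5 CPM.

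**Figure D2:**
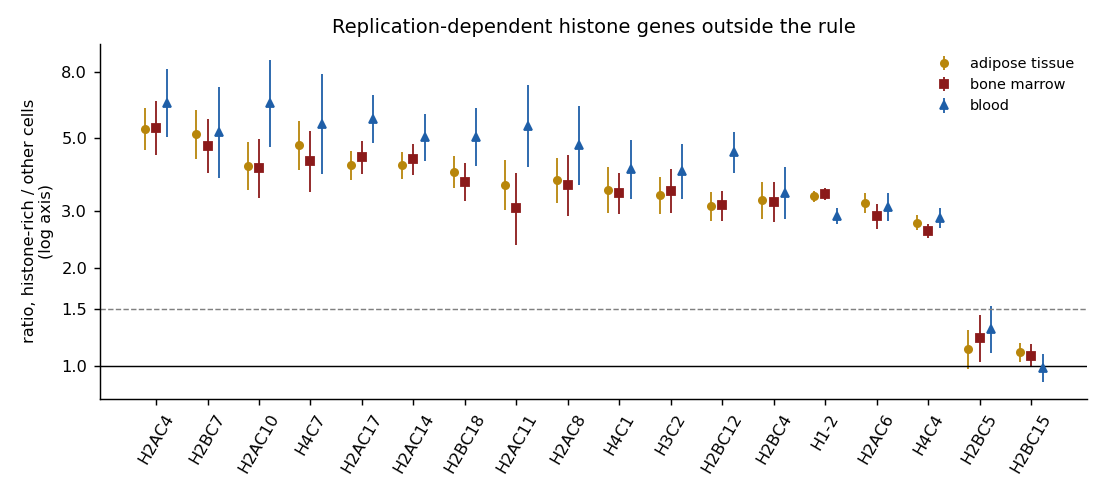
Ratio of histone-rich to other cells on a log axis for the 18 replication-dependent histone genes outside the rule that reached 20 CPM in at least 1 library, with 95% intervals for counting error. The dashed line is 1.5-fold; 16 genes lie above it in every library, including libraries where they were under 20 CPM and not counted, while H2BC5 and H2BC15 lie below it.

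Genes that process histone mRNA and carry histone proteins had smaller ratios than the histones. SLBP was the only one of 5 measured processing genes to be higher, at 93.9 against 59.98 CPM in adipose tissue (1.56-fold, 1.45 to 1.69), 99.9 against 60.4 CPM in bone marrow (1.66-fold) and 82.2 against 49.7 CPM in blood (1.65-fold). NPAT, which switches on histone transcription, had 1.34, 1.47 and 1.32. Among 16 histone chaperones 3, 3 and 2 were higher and 0 lower. CHAF1A, the large subunit of the assembly factor CAF-1 that loads histones behind the fork, was at 77.2 against 42.7 CPM (1.81-fold), 59.8 against 31.7 (1.89-fold) and 55.9 against 28.3 (1.97-fold). CHAF1B, its partner, had ratios of 1.57, 1.52 and 1.45, and the last was not counted. NASP, a chaperone that holds free histones, was at 457 against 301 CPM, 379 against 244 CPM and 304 against 188 CPM.

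A part of the genes of each replication list was higher, and the list medians lay below those of the histones. Of the licensing genes, whose products load and start the helicase at replication origins, 7 of 20 were higher in adipose tissue, 8 of 20 in bone marrow and 9 of 17 in blood, 0 were lower, and the medians were 0.48, 0.51 and 0.65 on the log2 scale. ORC1, the largest subunit of the origin recognition complex, was at 34.2 against 18.4 CPM (1.86-fold, 1.63 to 2.11), 24.3 against 12.7 (1.92-fold) and 21.6 against 10.2 (2.12-fold). The helicase subunits MCM3, MCM4 and MCM6 were higher in every library, with MCM3 at 144 against 87.3 CPM, 127 against 71.7 and 130 against 63.7. MCM2 passed in bone marrow (1.55) and blood (1.67) and had 1.44 in adipose tissue, and MCM5 and MCM7 passed in blood only. DBF4, the activator of the kinase CDC7, had ratios of 0.913, 1.05 and 1.11.

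At the replication fork 6 of 26, 11 of 26 and 10 of 25 genes were higher and 0 lower (medians 0.39, 0.50 and 0.51). PCNA, the sliding clamp, was at 332 against 228 CPM in adipose tissue (1.45-fold, 1.40 to 1.51, not counted), 301 against 198 CPM in bone marrow (1.52-fold) and 288 against 149 CPM in blood (1.94-fold, 1.85 to 2.02). FEN1, which trims Okazaki fragments, the polymerase delta subunit POLD3, the checkpoint mediator CLSPN, the fork protein WDHD1, and ATAD5 and DSCC1, which unload and load the clamp, were higher in all 3. CLSPN had 71.2 against 43.3, 51.6 against 31.2, and 60.9 against 30.5 CPM. Of the RPA genes, whose products coat single-stranded DNA, RPA1 was counted as higher in bone marrow (20.1 against 13.1 CPM, 1.54-fold, 1.30 to 1.82). RPA1 had 1.22 in adipose tissue and 1.245 in blood, and the values of RPA2 (1.22 to 1.44) and RPA3 (1.07 to 1.199) did not pass.

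Nucleotide synthesis gave 2, 3 and 4 higher genes of 17. RRM2, the small subunit of ribonucleotide reductase, stood at 292 against 193 CPM (1.51-fold), 285 against 176 CPM (1.62-fold) and 280 against 142 CPM (1.98-fold). DCK, which phosphorylates salvaged deoxycytidine, was at 55.4 against 30.0, 38.3 against 20.7 and 50.6 against 25.6 CPM. TYMS, thymidylate synthase, had only 1.16, 1.06 and 1.28.

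Among genes of G1/S control 4 of 12, 6 of 11 and 4 of 10 were higher, and CCND2, cyclin D2, was lower in bone marrow (30.7 against 48.8 CPM). FBXO5, an inhibitor of the anaphase-promoting complex, was at 82.8 against 41.2 CPM (2.01-fold, 1.85 to 2.18), 71.5 against 30.7 CPM (2.33-fold) and 71.1 against 24.95 CPM (2.85-fold, 2.59 to 3.12). CCNE2, a cyclin of S-phase entry, was at 28.2 against 12.5 CPM (2.25-fold), 26.2 against 11.97 CPM (2.19-fold) and, under the 20 CPM limit in blood, 19.0 against 9.94 CPM (1.91-fold). E2F8, a repressor of the E2F family, and RBL1, a relative of the retinoblastoma protein, were higher in all 3. Of the few measured CDK inhibitors (2, 4 and 4 genes) 0 were counted, and CDKN1A, the inhibitor p21, was at 184 against 141 CPM (1.30-fold), 119 against 115 CPM (1.03-fold) and 90.1 against 92.2 CPM (0.977-fold).

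Of the checkpoint and repair genes 7 of 22, 12 of 22 and 11 of 20 were higher and 0 lower. EXO1, an exonuclease of mismatch repair and end resection, had 34.6 against 16.0 CPM (2.17-fold), 30.7 against 13.8 (2.23-fold) and 30.3 against 12.8 (2.38-fold). The recombination genes BRCA1 and RAD51AP1, and BARD1, the partner of BRCA1, were also higher in all 3. Genes that copy chromatin marks and cohesion gave 6 of 13, 5 of 12 and 7 of 12. ESCO2, which acetylates cohesin on copied DNA, was at 93.4 against 54.0 CPM (1.73-fold), 66.9 against 33.9 (1.98-fold) and 69.9 against 26.9 (2.60-fold). UHRF1, which brings DNA methyltransferase to copied DNA, had 1.61, 1.79 and 2.09.

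**Figure D3:**
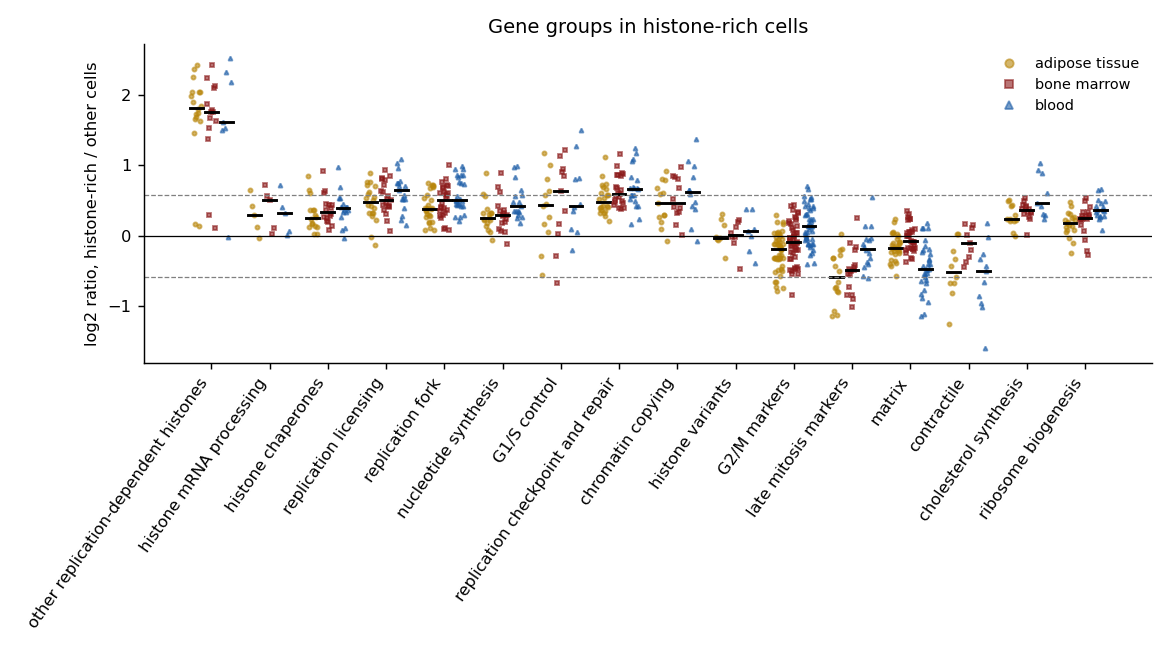
Log2 ratio of histone-rich to other cells for the measured genes of 16 lists in each library. Each point is a gene, black bars are medians, dashed lines mark 1.5-fold. The histone list has medians of 1.62 to 1.82, the replication lists (from mRNA processing to chromatin copying) have medians between 0.25 and 0.67, and late mitosis markers lie mostly below 0.

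Of the 36 genes outside the rule and the listed histones that were higher in every library, 30 belonged to a replication list or to the S phase markers, and 6 belonged to no list (H1-12, ADAMTS1, DNAJC9, CENPQ, PSMC3IP and ZGRF1). ADAMTS1, a secreted metalloprotease, was at 28.1 against 10.7 CPM in adipose tissue (2.61-fold), 69.4 against 42.5 CPM in bone marrow (1.63-fold) and 50.8 against 18.8 CPM in blood (2.70-fold). DNAJC9, a histone chaperone of the heat shock protein family, had 1.62, 1.66 and 1.74. The genes lower in all 3 were IFIT1, NUPR1, SERPINF1, MKNK2 and REEP4. IFIT1, an interferon-induced gene, was at 14.9 against 29.7 CPM, 10.6 against 24.5 CPM and 43.4 against 91.0 CPM. NUPR1, a stress-induced nuclear protein, was at 44.2 against 77.1, 62.9 against 130.1 and 95.8 against 216 CPM. Free RNA held 71.6, 213 and 261 CPM of NUPR1, above both pools in bone marrow and blood, and its part in the result was not tested. MKNK2, a kinase of the translation factor eIF4E, was at 65.1 against 113, 118 against 195.5 and 120 against 227 CPM. Its free RNA level was 150, 176 and 190 CPM, above both pools in adipose tissue only. SERPINF1, the secreted factor PEDF, was at 16.5 against 28.3, 14.1 against 32.1 and 15.6 against 48.5 CPM.

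**Figure D4:**
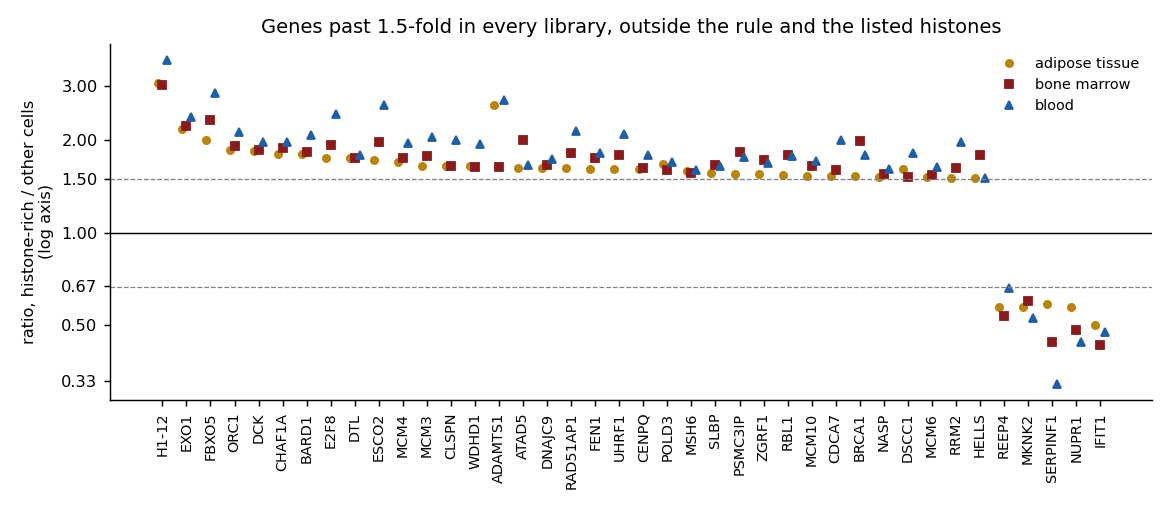
Ratio of histone-rich to other cells, on a log axis, for 40 of the 41 genes past 1.5-fold in the same direction in every library that are neither rule genes nor listed histones. The 35 higher genes drawn lie from 1.5 up to 3.64 and the 5 lower genes from 0.323 to 0.660.

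Of the S phase markers 22 of 41, 27 of 41 and 24 of 39 were higher and 0 lower, 17 of them in every library, and many of them also sit in the replication lists. Per cell, their median share of UMIs was 0.425% in histone-rich and 0.305% in other adipose cells, 0.379% and 0.258% in bone marrow, and 0.380% and 0.225% in blood. The level exceeded by 10% of all cells was passed by 34.6% of adipose histone-rich cells (30.9 to 38.6%), 34.9% of those from bone marrow (31.7 to 38.3%) and 40.3% of those from blood (34.7 to 46.0%). Among other cells it was passed by 7.26%, 7.23% and 6.67%. With every cell thinned to 4000 UMIs the shares were 29.6%, 28.9% and 33.7% of histone-rich cells. Most histone-rich cells thus lay under that level.

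Of 16 late mitosis markers 8, 5 and 1 were lower and 0 higher, with medians of -0.58, -0.49 and -0.18. Several of the 16, such as CENPE, CENPF and UBE2C, are also in the broader G2/M list below. The list name is thus a label and does not place a cell in late mitosis. CCNB1, cyclin B1, was at 55.9 against 122.9 CPM in adipose tissue (0.455-fold, 0.413 to 0.499), 57.5 against 103 CPM in bone marrow (0.556-fold) and 63.1 against 93.9 CPM in blood (0.671-fold, not counted). PLK1, a mitotic kinase, was at 28.4 against 59.7, 32.3 against 53.7 and 36.2 against 49.2 CPM. REEP4, which keeps membranes off mitotic chromosomes, was the only one lower in all 3. The top 10% of cells by these markers held 0 of 609 histone-rich adipose cells, which allows a share of up to 0.493% by 3 cells of the total and 0.604% as the exact binomial limit. It held 11 of 830 in bone marrow (1.33%, 0.663 to 2.36%) and 14 of 303 in blood (4.62%, 2.55 to 7.63%). After thinning the shares were 0.493%, 1.93% and 3.96%. Without the 10% of cells highest for these markers the median in blood became 0.08, and those in adipose tissue and bone marrow -0.28 and -0.27. The broader G2/M list had 5, 1 and 0 of 47 lower and 0, 0 and 2 higher. TOP2A had 0.799, 0.981 and 1.22, and MKI67, present in all cycling phases, 0.987, 1.12 and 1.23.

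Levels were graded along the score. In adipose tissue CCNE2 had 8.06 CPM in the lower 50% of cells by score, 15.8 from 50 to 75%, 20.8 from 75 to 90%, 27.0 from 90 to 95% and 29.5 in the top 5%. PCNA went over the same bands from 183 through 264, 308 and 326 to 339 CPM. TOP2A was highest in the middle, with 328, 393, 345, 285 and 274 CPM, and CCNB1 went from 138 through 122.8, 77.1 and 60.2 to 51.1 CPM. In bone marrow TOP2A was also highest in between, with 255, 358, 392, 316 and 289 CPM. In blood TOP2A had 264, 335, 427, 369 and 402 CPM, and CCNB1 went from 98.5 to 61.6 CPM.

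Ordered by genes outside the rule, the histones followed 2 shapes. Over deciles of cells by their share of licensing gene UMIs, the 6 rule genes increased from 96.0 to 1058 CPM in adipose tissue, from 69.4 to 708 CPM in bone marrow and from 77.8 to 461 CPM in blood. Each decile was higher than the one before it in all 3 libraries. Histone-rich cells made up 27.1%, 25.7% and 30.4% of the highest licensing decile and 0.164%, 0.241% and 0% of the lowest. Over deciles by late mitosis markers the levels peaked in between, at 980 CPM (decile 4) in adipose tissue, 539 CPM (decile 4) in bone marrow and 367 CPM (decile 5) in blood. The lowest decile had 167, 87.6 and 82.5 CPM and the highest 190, 214 and 128 CPM. Cells with the fewest mitotic UMIs and cells with the most were thus both low in histone UMIs. Licensing and late mitosis shares are read from the same cells and UMI totals as the histones, so these orders are descriptions.

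**Figure D5:**
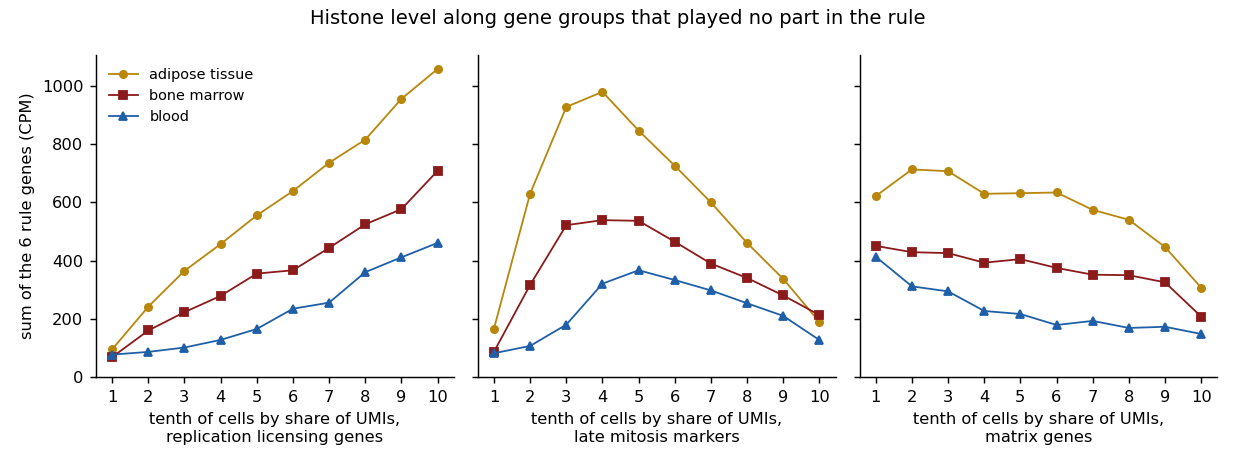
Summed level of the 6 rule genes (CPM) in 10 equal groups of cells of each library, ordered by the share of UMIs in replication licensing genes (left), late mitosis markers (middle) or matrix genes (right). The level climbs with licensing genes, peaks at group 4 or 5 for late mitosis markers, and is lowest in the group with most matrix UMIs.

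To compare histone-rich cells with other cells of like licensing share, the other cells were weighted so that their licensing gene shares matched. This comparison was chosen after the values above were seen. Other replication genes were not matched, and the fork genes kept median log2 ratios of 0.17, 0.28 and 0.15. Counted genes were 29 higher (0.532%) and 16 lower (0.293%) of 5455 in adipose tissue. They were 31 (0.57%) and 14 (0.257%) of 5441 in bone marrow, and 33 (0.608%) and 40 (0.737%) of 5424 in blood. The rule genes, which are high by the choice of the cells, had median log2 ratios of 1.93, 2.12 and 2.08 in this comparison. The other histones had 1.35, 1.38 and 1.39, with 16, 12 and 6 counted as higher. Of the S phase markers 2, 3 and 1 stayed past 1.5-fold, and the list medians stayed above 0, at 0.23, 0.30 and 0.13. This list shares genes such as MCM2, MCM4 and MCM6 with the matched licensing list, and the weights set the fall of those genes. Genes higher in all 3 were 14 of 4956 (0.282%). They were the 6 rule genes, again by the choice, and H2AC6, H2AC14, H2AC17, H2BC12, H1-2, H4C4, H1-12 and FBXO5. FBXO5 had 1.54, 1.77 and 1.75 and PCNA 1.17, 1.23 and 1.24. Licensing genes such as MCM3 are not read here, since their share was matched. CDKN1A, not counted in the unweighted comparison, had 1.68 (counted as higher), 1.48 and 1.35. Late mitosis markers had 7, 6 and 0 lower, with CCNB1 at 0.460, 0.555 and 0.778. No gene was lower in all 3 with the weights. Of those lower in all 3 without them, IFIT1 and NUPR1 were still counted in blood and SERPINF1 in bone marrow and blood. REEP4 was still counted in adipose tissue and bone marrow, and MKNK2 in no library.

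Of the matrix genes 10 of 31 were lower in blood and 0 higher (median -0.47, short of 1.5-fold). In adipose tissue 0 of 30 were lower (median -0.17) and in bone marrow 0 of 31 (median -0.08). Over all measured genes 2.47% were lower in blood, 0.587% in adipose tissue and 0.477% in bone marrow. The 2 counts of 0 are thus near the shares over all genes. COL1A1, the chain of type I collagen with most UMIs, was at 3497 against 6248 CPM in blood (0.560-fold, 0.553 to 0.566), 1644 against 2171 CPM in adipose tissue (0.757-fold) and 3137 against 4063 CPM in bone marrow (0.772-fold). COL3A1, type III collagen, was at 570 against 1257 CPM in blood (0.453-fold), 465 against 548 CPM in adipose tissue and 311 against 358 CPM in bone marrow. FN1, fibronectin, was at 415 against 707 CPM in blood and 760 against 760 CPM in bone marrow. The lowest of 10 groups by matrix share held 29.6% histone-rich cells in blood, 10.0% in adipose tissue and 11.7% in bone marrow. Whether the tissues differ in this was not tested, since each has 1 library.

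The lower matrix values in blood moved with the way cells were chosen. They became -0.29 (median) when the score was taken at 4000 UMIs per cell and -0.22 with other cells of like licensing share, where 3 genes stayed lower and COL1A1 had 0.701. All genes counted as lower in blood were 135, but 39 with the thinned score, 52 for the top 20% of cells and 229 for the top 5%. Macrophage marker UMIs were also lower in the same cells (63.0 against 97.1 CPM), and their part in the result was not tested.

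Of the contractile genes 4 of 10 were lower in adipose cells, 0 of 9 in marrow cells and 5 of 11 in blood cells. At like licensing share 0 of 10, 0 of 9 and 2 of 11 were lower. ACTA2, smooth muscle actin, was at 52.5 against 125 CPM (0.419-fold, 0.380 to 0.461), 107 against 146 CPM (0.734-fold) and 197 against 356 CPM (0.552-fold). At like licensing share ACTA2 had 0.672, 0.893 and 0.803, none of them counted. Its free RNA level was 335, 189 and 426 CPM, above both pools of each library, and the part of free RNA in the result was not tested. TPM2, a tropomyosin, was at 275 against 438, 528 against 653 and 596 against 943 CPM. Some of the genes that differ between the source tissues were apart in blood too. MEOX1, a homeobox factor, was at 74.9 against 37.3 CPM there (2.01-fold), with 0.979 in adipose tissue and 1.05 in bone marrow, and ALDH1A1, a retinaldehyde dehydrogenase, at 80.2 against 40.4 CPM (1.98-fold), with 1.01 and 0.841. IL1RL1 (1.58) and INHBA (1.65) were higher in blood as well. SFRP4 (271 against 505 CPM), SFRP2, IL6, EMX2, SST and ASPN were lower in blood, and SFRP2 and ASPN also in adipose tissue. MEOX1 had 1.34 and ALDH1A1 1.47 in blood with the thinned score, neither past 1.5-fold.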

How the data were processed

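The authors' deposited matrices hold counts: whole UMI counts per gene and barcode, made with Cell Ranger (version 4 per the file headers but 6.1.1 in the submitters' processing notes, which also name the build ARS-UCD1.2). The sources used here do not give how multi-mapped reads were counted. Barcodes were taken as cells from the 99th percentile of UMIs among the top 3000 barcodes divided by 10. The score, pools, CPM, ratios and exact binomial intervals were computed with Python 3.11.15, numpy 2.4.6, scipy 1.17.1 and pandas 2.3.3. Doublets were not removed. Of 28 gene lists, 563 of 575 entries were found by symbol. The members and lists were chosen with earlier results of these data known, and calls describe these libraries, with no test. Named genes are the rule genes, up to 15 genes highest and 15 lowest in all 3 libraries, counted list members, the 5 most extreme genes per library in each direction, and fixed landmarks such as PCNA. DNAJC9, a counted gene of no list, and list members that were not counted, such as H2BC15, NPAT, RPA3 or TYMS, were chosen after their values were seen. On simulated counts for 21861 genes, 200 of 200 genes at 2-fold, 0 of 200 at 1.25-fold and 0 unchanged genes were counted in each library, and 95.07 to 95.53% of the intervals held the simulated ratio. The simulated pools had counting error only, with no spread between cells and no choice of cells by their counts. Their changed genes lay above the 20 CPM limit. The simulation thus checks the calculation and not the error of the real comparison. Alternatives changed the share of cells taken, the genes and depth of the score, the weighting, scaling, CPM minimum and fold limit, and left out cells or libraries. No genome of the files' build was used here, so no coordinates or sequences are given. Of the genes higher in all 3 libraries, 1 is counted but not reported here by name or value.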

Additional observations from a re-analysis of the deposited data

Results flagged for a closer look

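Rule-gene UMIs were also read in barcodes that the comparison does not use. Barcodes from 1000 UMIs up to the cell minimum held 407 CPM of the 6 histone genes in adipose tissue, 201 CPM in bone marrow and 252 CPM in blood, all above the limit that a count of 0 allows. Cells removed for macrophage genes held 196 CPM in bone marrow and 211 CPM in blood. Each of these values is below that of the histone-rich cells of its library (1991, 1358 and 813 CPM). In blood both are above the other kept cells (166 CPM) and the free RNA (153 CPM), whereas in bone marrow both, at 201 (188 to 215) and 196 CPM (188 to 204), are below the other kept cells (266 CPM) and overlap the counting interval of the free RNA (195.4 to 247 CPM).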

How the results depend on the processing

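The main counts are 78, 112 and 160 genes higher (adipose tissue, bone marrow, blood), 48 higher in all 3, 32, 26 and 135 lower, and 5 lower in all 3; values below keep this order. The limits set the counts most. At the lower fold limit tried they were 314, 624, 720 and 165 higher and 146, 127, 421 and 36 lower, and at 2-fold 27, 23, 33 and 15 higher and 6, 5, 23 and 0 lower. At 5 CPM they were 176, 294, 369 and 83 higher and 91, 77, 276 and 10 lower. At 50 CPM 41, 50, 76 and 27 were higher, and 13 (bone marrow), 78 (blood) and 3 (all 3) lower. With no minimum they were 1435, 1775, 1770 and 194 higher and 3140, 2976, 3154 and 658 lower, where genes of few UMIs enter. Against other cells of like licensing share, an alternative added after the data were seen, they were 29, 31, 33 and 14 higher and 16, 14, 40 and 0 lower. The choice of cells moved the lower genes: the top 5% gave 45 (bone marrow), 229 (blood) and 10 (all 3), and the top 20% gave 12, 52 and 3. The score at 4000 UMIs gave 19 lower in adipose tissue, and 39 lower and 102 higher in blood, and the score over H3C7, H4C3 and H1-4 gave 17 lower in bone marrow and 54 in blood. Median-of-ratios scaling gave 8 lower in all 3, and cells of at least 10000 UMIs gave 211 higher in bone marrow. Leaving out 1 library gave 52 to 69 genes higher and 9 to 13 lower in both others. Of the 48 genes higher in all 3, 33 remained with the score at 4000 UMIs and 42 in the top 5%. Some list medians and gene ratios changed direction. Late mitosis markers in blood had 0.075 without the most mitotic cells. The p53 targets in adipose tissue had 0.021 at 50 CPM, 0.027 with no minimum and 0.076 at like licensing share. CDK inhibitors in blood had -0.11 with no minimum. At like licensing share, bone marrow had 0.032 for stromal markers and 0.015 for contractile genes, and blood -0.039 for histone mRNA processing (0.32 without the weights). The ratios there were 0.962 for DTL and 0.991 for MCM6 in blood (1.78 and 1.64 without the weights), and for CDC6 0.948 in adipose tissue and 0.960 in bone marrow. MCM6 and CDC6 belong to the matched licensing list. The cause of these moves was not tested. Depth limits genes under 20 CPM. Each ratio already sets histone-rich cells beside other cells of the same library. The tissues have 1 library each, all from 1 cow. The within-library pairs were not tested, since the cells were chosen by their own counts.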

Other observations

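Genes of cholesterol synthesis lay above 1 in every measured case, with medians of 0.24 (12 genes), 0.36 (14) and 0.46 (9) on the log2 scale, and 0, 0 and 4 were counted as higher. HMGCS1, which makes the precursor of mevalonate, was at 150 against 107 CPM in adipose tissue, 254 against 189 CPM in bone marrow and 78.8 against 41.4 CPM in blood (1.91-fold). SQLE, squalene epoxidase, was at 36.6 against 17.8 CPM in blood (2.05-fold), with 1.42 and 1.41 in the others. Ribosome biogenesis genes had medians of 0.18, 0.25 and 0.36, and NOLC1 and POLR1A passed 1.5-fold in blood.

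The immediate early and stress genes went both ways. EGR1, an immediate early transcription factor, was at 122 against 74.6 CPM in adipose tissue (1.64-fold), 59.9 against 39.1 CPM in bone marrow (1.53-fold) and 123.4 against 83.7 CPM in blood (1.47-fold). ATF4, the factor of the integrated stress response, and its targets DDIT3 and TRIB3 were lower in blood, at 402 against 619 CPM, 61.9 against 101.1 CPM and 12.2 against 20.5 CPM. In adipose tissue and bone marrow ATF4 had 0.769 and 0.740. The most extreme lower genes of single libraries were CXCL2 in blood (16.1 against 76.6 CPM), CLU, clusterin, in bone marrow (5.65 against 22.01 CPM, and 21.9 against 21.9 CPM in adipose tissue) and ACTA2 in adipose tissue. Free RNA in blood held 94.1 CPM of CXCL2, above both pools, and its part in the result was not tested.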
